A study of Mus musculus with 24 samples.

Results

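Transcripts of 10 genes that encode collagens and nidogens of the basement membrane were measured in mouse whole liver by RNA-Seq. They are the 6 chains of collagen IV (Col4a1, Col4a2, Col4a3, Col4a4, Col4a5 and Col4a6), the basement membrane zone collagens Col15a1 and Col18a1, and the nidogens Nid1 and Nid2. The genes were chosen by symbol and not by their values, and they are 10 of the 56205 genes in the count table. All 10 passed the filter on low counts and were tested among 17913 genes.

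Basement membranes are thin sheets of matrix that underlie epithelia, line vessels and surround muscle and nerve. Collagen IV chains assemble in the cell as trimers and then join outside it into a network, laminins form another network, and nidogens and the proteoglycan perlecan bind the networks to each other. The liver sinusoid is unusual, because its fenestrated endothelium has no continuous basement membrane, whereas bile ducts, portal vessels and central veins have one. Deposition of basement membrane components along the sinusoid, with loss of fenestrae, is known as capillarization and accompanies fibrosis.

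The mice were C57BL/6J, and they received a high-fat diet (FFD, 12 libraries), made with palm oil and rich in fructose and cholesterol, or its control diet (FFD_Ctrl, 12 libraries) for 20 weeks. According to the methods, the animals were 8 to 10 weeks old when the diet began, and no engineered allele is named for them. The design gives 6 mice per diet and sex, but no label ties a library to a sex. Libraries were numbered from 1 to 12 within each diet and each was treated as 1 sample, so p-values measure the spread between these libraries. The diet acts on the whole animal, and whole liver mixes all cell types of the organ.

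Library totals ranged from 14468418 to 22112552 counts, and 3 counts equalled 0.148 CPM (counts scaled to a common library total) on average in an FFD library and 0.175 CPM in a control library. That total is the sum of counts times edgeR's TMM factor. The factors were 0.994 to 1.34 in the FFD libraries and 0.679 to 1.01 in the control libraries. Levels in CPM, and whether libraries of the diets overlap, depend on them. Xist, the noncoding RNA of the inactive X chromosome, split the libraries into 2 sets with 6 libraries of each diet in each set: replicates 1 to 6 had 2664 to 6285 counts and replicates 7 to 12 had 0 to 3. Xist is a transcript of female cells, and the sets are as large as the design's groups by sex, so they probably are the sexes, but no label says so. The sets are named here by Xist above or below 1000 counts, and the split was known from earlier results of these data. FFD replicate 9 stood apart from the other FFD libraries in several members, as described below. Control replicate 10 had the smallest total and the lowest TMM factor. It also had the lowest control level of Col4a1, Col4a4, Col4a5, Col15a1 and Nid1. The tissue label was checked with 7 hepatocyte markers, whose summed level was 36701 to 89253 CPM in the FFD libraries and 79170 to 127806 CPM in the control libraries.

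Collagen IV genes lie in head-to-head pairs. In GENCODE M21 (GRCm38), Col4a1 (ENSMUSG00000031502, chr8:11198423-11312826, minus strand) and Col4a2 (ENSMUSG00000031503, chr8:11312805-11449287, plus strand) start so close that their first exons overlap by 22 bases. Col4a3 (ENSMUSG00000079465, chr1:82586921-82722059, plus strand) and Col4a4 (ENSMUSG00000067158, chr1:82448423-82586849, minus strand) have a gap of 71 bases between their starts. Col4a5 (ENSMUSG00000031274, chrX:141475385-141689234, plus strand) and Col4a6 (ENSMUSG00000031273, chrX:141165403-141474076, minus strand) are 1308 bases apart. The other 4 genes are Col15a1 (ENSMUSG00000028339, chr4:47208161-47313167), Col18a1 (ENSMUSG00000001435, chr10:77052178-77166548), Nid1 (ENSMUSG00000005397, chr13:13437551-13512269) and Nid2 (ENSMUSG00000021806, chr14:19751265-19811787). The study's methods name a stranded library kit for RNA-Seq without naming the mouse libraries, and whether the counting used strand is not given in the sources used here. Without strand the reads of the 22 shared bases of Col4a1 and Col4a2 cannot be told apart.

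RefSeq promoter windows (GRCm38.p6, 250 bases before to 50 after a start, 300 bases each) were matched by symbol to 8 of the 10 genes and gave 9 windows, since Col18a1 has 2. Col4a3 and Nid2 were not matched. The windows of Col4a1 and Col4a2 shared 78 bases, shown first because they hold both starts of the pair that rose together. The Nid1 window is shown for the gene with the largest fold change among the abundant members. Both Col18a1 windows are shown because their starts lie 52825 bases apart and the counts per gene do not separate transcripts from the 2 starts. Capitals mark the GC box motif GGGCGG and the CCAAT motif, searched on both strands, so CCGCCC and ATTGG are the same motifs on the other strand, and no marked motif overlaps another. The stretches are chr8:11312777-11312854 (plus strand), chr13:13437352-13437651 (plus strand), chr10:77166481-77166780 (minus strand) and chr10:77113656-77113955 (minus strand).
Col4a1 and Col4a2, shared stretch: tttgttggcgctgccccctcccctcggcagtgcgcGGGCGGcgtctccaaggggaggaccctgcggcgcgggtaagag
Nid1: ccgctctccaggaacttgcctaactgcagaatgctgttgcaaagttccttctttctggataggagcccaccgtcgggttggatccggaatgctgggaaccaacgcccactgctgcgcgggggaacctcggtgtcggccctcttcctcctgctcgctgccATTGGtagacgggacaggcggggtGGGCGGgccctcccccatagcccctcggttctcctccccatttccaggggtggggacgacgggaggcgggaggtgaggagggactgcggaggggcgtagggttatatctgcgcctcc
Col18a1, outer start: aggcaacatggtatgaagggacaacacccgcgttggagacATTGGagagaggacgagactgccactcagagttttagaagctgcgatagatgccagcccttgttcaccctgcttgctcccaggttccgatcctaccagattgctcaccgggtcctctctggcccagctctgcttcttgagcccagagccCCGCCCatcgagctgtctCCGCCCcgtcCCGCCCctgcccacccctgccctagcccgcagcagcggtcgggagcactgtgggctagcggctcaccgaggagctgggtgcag
Col18a1, inner start: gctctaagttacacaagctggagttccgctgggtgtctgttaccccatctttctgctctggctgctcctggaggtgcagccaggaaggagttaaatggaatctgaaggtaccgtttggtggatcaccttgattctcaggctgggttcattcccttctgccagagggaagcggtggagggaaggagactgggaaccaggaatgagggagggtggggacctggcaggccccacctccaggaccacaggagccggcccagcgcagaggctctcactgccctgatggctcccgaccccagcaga

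GGGCGG was found in 6 of the 9 windows and CCAAT in 5 of them, against 35.7% and 37.4% of the 32851 windows of the RefSeq table. The shared stretch of Col4a1 and Col4a2 had 1 GC box and no CCAAT. The outer Col18a1 window had 3 GC boxes and 1 CCAAT, the inner window had neither, and the Nid1 window had 1 of each. TATAAA and the AP-1 motif TGANTCA were in 0 of the 9 windows and in 13.6% and 7.81% of all windows. These matches describe letters in the windows only.

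The comparison of the diets asks which of these transcripts differ in level after 20 weeks of FFD. A gene was called when its adjusted p did not exceed 0.01 and its log2 fold change was beyond 0.5 in either direction. By these limits, edgeR's quasi-likelihood test called 6 of the 10 members higher on FFD, namely Col4a1, Col4a2, Col4a4, Col4a6, Col15a1 and Nid1. Of all 17913 genes, 13.2% were called higher and 4.99% lower. The same edgeR test called 0 members lower, and 1 member, Col18a1, was lower at an unadjusted p under 0.05; DESeq2 and limma-voom also called 0 lower. The median log2 fold change was 1.39 over the 10 members and -0.03 over all genes tested. In whole tissue, more cells of a type and more RNA per cell cannot be told apart.

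**Figure D1:**
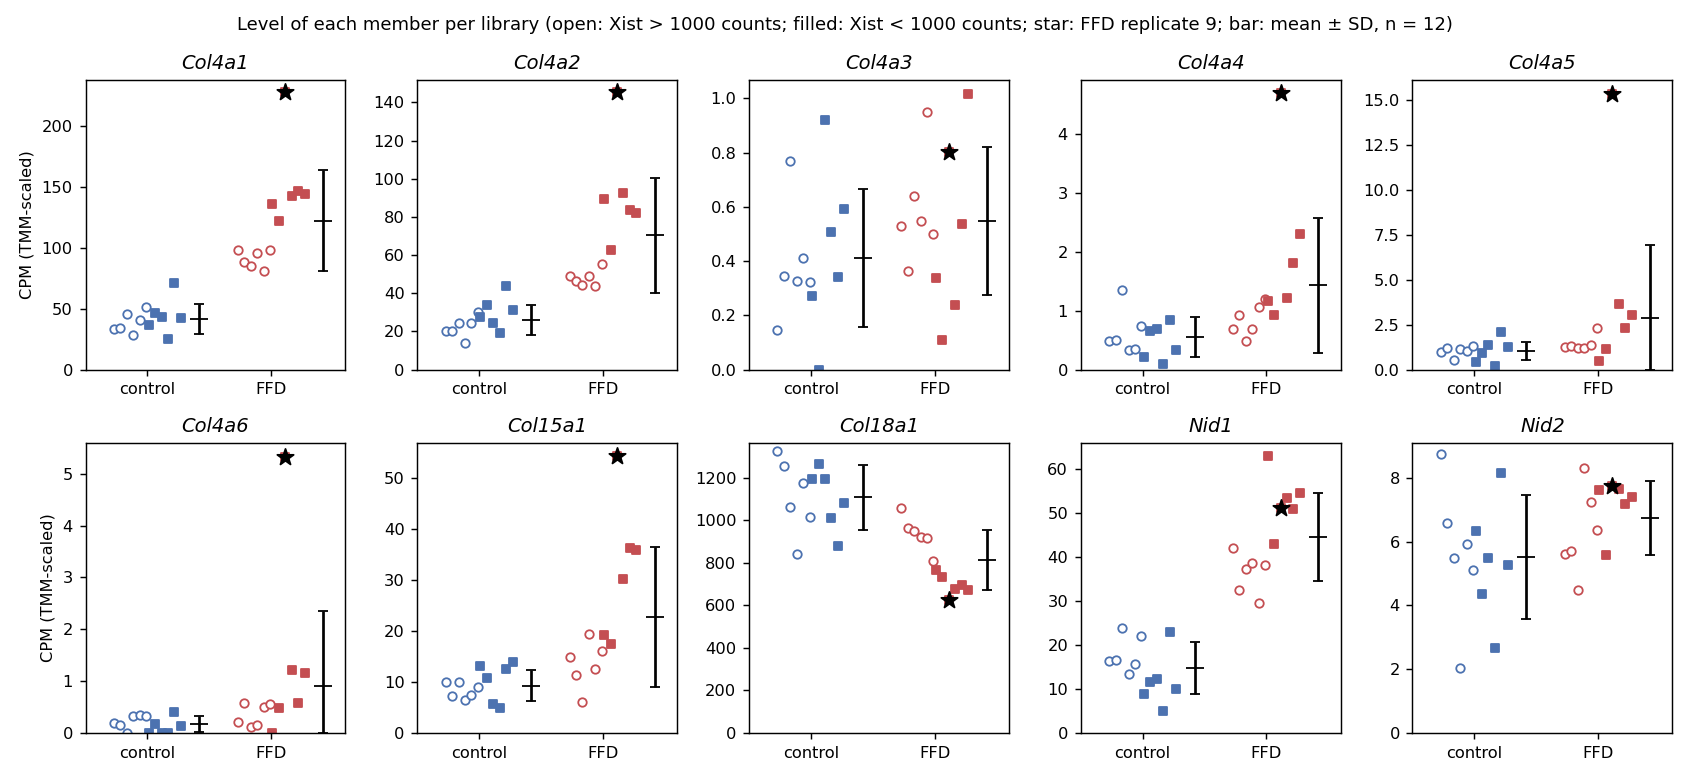
Level of each of the 10 members in CPM (linear axes from 0) in the 12 control and 12 FFD libraries, with the mean ± SD of each diet as a bar beside the points. Open circles are libraries with Xist above 1000 counts, filled squares those below, and the star is FFD replicate 9. The diets do not overlap for Col4a1, Col4a2 and Nid1, and the star is the highest FFD point for 6 members and the lowest for Col18a1.

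Col4a1 and Col4a2 encode the alpha 1 and alpha 2 chains, which form the collagen IV trimer found in nearly all basement membranes. Col4a1 had 25.5 CPM in the lowest control library, 41.6 in the median and 71.0 in the highest, against 80.8, 110 and 228 CPM on FFD. Every FFD library was above every control library. The mean was 41.6 ± 12 CPM in control and 122 ± 41.4 CPM on FFD (SD, 12 libraries per diet), a log2 fold change of 1.55 (SE 0.17, edgeR adjusted p = 4.78e-07).

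Col4a2 had 13.7, 24.5 and 43.8 CPM in the lowest, median and highest control library, and 43.9, 59.0 and 145 CPM on FFD. The diets were again apart, but the lowest FFD library and the highest control library differed by little. The mean rose from 26.1 ± 7.99 to 70.3 ± 30.03 CPM, a log2 fold change of 1.43 (SE 0.20, edgeR adjusted p = 5.80e-06). Such a complete separation with FFD on top was seen for 3 of the 10 members and for 1.48% of all genes tested.

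Nid1 (nidogen 1), a glycoprotein that links the laminin and collagen IV networks, was the third of these. It had 4.89, 14.4 and 23.9 CPM in the lowest, median and highest control library, and 29.6, 42.4 and 62.9 CPM on FFD. Its mean rose from 14.8 ± 5.90 to 44.5 ± 10.04 CPM, a log2 fold change of 1.58 (SE 0.19, edgeR adjusted p = 1.14e-06). The highest FFD value was in replicate 7, not in replicate 9.

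Nid2 (nidogen 2), its homolog with overlapping binding partners, was measured at 2.02, 5.47 and 8.75 CPM in the lowest, median and highest control library and at 4.48, 7.21 and 8.31 CPM on FFD. The highest library of all was a control library. The mean was 5.51 ± 1.94 CPM in control and 6.74 ± 1.17 CPM on FFD, and the log2 fold change of 0.29 (SE 0.17, edgeR adjusted p = 0.187) did not pass. With scaling by library totals alone, which shifts the median log2 fold change of all genes to 0.26, the value of Nid2 was 0.57 (edgeR adjusted p = 0.0228), still short of the threshold.

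Col15a1 and Col18a1 encode the multiplexins, collagens with interrupted helices that carry glycosaminoglycan chains and release restin and endostatin from their C-terminal ends. Col15a1, which lies at the outer face of basement membranes, had 4.89, 9.49 and 13.9 CPM in the lowest, median and highest control library, and 6.02, 18.3 and 54.3 CPM on FFD. In 9 of the 12 FFD libraries it was above every control library, and 1 FFD library was below the control median. The mean rose from 9.23 ± 3.003 to 22.7 ± 13.8 CPM, a log2 fold change of 1.30 (SE 0.27, edgeR adjusted p = 0.000446).

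Col18a1 was the only member with a negative fold change and by far the most abundant. It had 841, 1127 and 1328 CPM in the lowest, median and highest control library and 623, 787 and 1056 CPM on FFD. All 12 FFD libraries were below the control median and 7 were below every control library. The mean was 1108 ± 153 CPM in control and 815 ± 141 CPM on FFD, a log2 fold change of -0.44 (SE 0.10, edgeR adjusted p = 0.000994), which passed the p threshold but not the threshold on the fold. At that adjusted p with any fold, 10.9% of all genes were lower and 14.9% higher, among them the same 6 members as above. With library totals the value was -0.17 (edgeR adjusted p = 0.138). The difference thus depended on the scaling, and the numbers of libraries given above hold for TMM-scaled levels. With TMM scaling the 7 hepatocyte markers were lower in the same libraries: 6 of the 7 were called lower and 0 higher, with a median log2 fold change of -0.72. These calls also depended in part on the scaling. With library totals Alb (-0.478), Apoa1 (-0.427) and Serpina1a stayed negative but were short of the fold threshold, whereas Cps1 was still called lower. Values of the other hepatocyte markers with library totals are not given. The part of hepatocyte RNA in the level of Col18a1 was not tested.

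The remaining collagen IV chains were scarce. Col4a3, Col4a4 and Col4a5 encode chains of the trimer known from the glomerular basement membrane. Col4a3 had 0 to 16 counts per control library (median 6.5) and 2 to 23 per FFD library (median 10.5). Its log2 fold change was 0.41 (SE 0.37, edgeR adjusted p = 0.396), and the diets overlapped widely. Counts of Col4a4 were 1 to 28 in control (median 10) and 9 to 111 on FFD (median 21.5). The mean rose from 0.549 ± 0.336 to 1.43 ± 1.14 CPM, a log2 fold change of 1.35 (SE 0.36, edgeR adjusted p = 0.0038), with 3 FFD libraries above every control library.

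Col4a5 had 2 to 37 counts in control (median 19.5) and 10 to 364 on FFD (median 25). Its log2 fold change of 1.46 (SE 0.44) narrowly missed the threshold (edgeR adjusted p = 0.0109), and DESeq2 called it (DESeq2 adjusted p = 0.00209). Col4a6, whose chain pairs with that of Col4a5 in other tissues such as smooth muscle, had 0 to 7 counts in control (median 3) and 0 to 126 on FFD (median 10). Its log2 fold change of 2.34 (SE 0.67, edgeR adjusted p = 0.00701) was the largest of the 10 members, at a median of 10 counts or fewer in either diet. At such depth, differences of a few counts between libraries lie within counting error.

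FFD replicate 9 stood apart for 3 of the 4 scarce chains. It had the highest FFD level of 6 members. Col4a5 was at 15.4 CPM there, 11.9 times the median of the other 11 FFD libraries, and Col4a6 was at 5.33 CPM, 10.6 times that median. Col4a4 was 4.43 times, Col15a1 3.13 times, Col4a2 2.63 times and Col4a1 2.33 times the median of the others. Nid1 at 1.22 times, Nid2 at 1.08 times and Col4a3 at 1.52 times the median were not highest there, and Col18a1, at 0.769 times the median, was lowest.

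Without FFD replicate 9, 4 members were called higher, Col4a1, Col4a2, Col15a1 and Nid1. The share of all genes called in that fit is not given. Col4a4 then had a log2 fold change of 1.03 (edgeR adjusted p = 0.0101), Col4a5 0.75 (edgeR adjusted p = 0.0545) and Col4a6 1.52 (edgeR adjusted p = 0.0372). The abundant members moved less, with 1.45 for Col4a1, 1.30 for Col4a2, 1.12 for Col15a1 and 1.57 for Nid1.

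The same library had the highest level of markers of bile duct epithelium. Of 6 cholangiocyte markers, 5 were called higher on FFD and 0 lower, and their summed level was 27.5 to 133 CPM in control and 32.2 to 896 CPM on FFD, where 896 CPM was FFD replicate 9 and the median was 218. Most of this sum was 1 gene, Spp1, with a mean of 43.5 CPM in control and 268 CPM on FFD. In FFD replicate 9 Spp1 was at 729 CPM. Keratin 19 (Krt19) was at 48.1 CPM there and at most at 7.57 CPM in another FFD library, and Epcam was at 58.2 CPM against at most 14.7. The summed portal fibroblast markers were also highest there, at 108 CPM, as were the summed continuous endothelial markers, at 225 CPM. The continuous endothelial list was mixed. Cd9, Cd34 and Emcn were highest there, with Cd9 at 108 CPM and Cd34 at 27.6 CPM against at most 8.32 in another FFD library. Plvap was lowest there among the FFD libraries, at 72.5 CPM, and Vwf, at 9.60 CPM, was below the median of the others. The summed hepatocyte, sinusoidal endothelial and macrophage markers were lowest there among the FFD libraries, but not every marker in these lists was low. Apoa1, Serpina1a, Stab1, Cd68, Trem2 and Cd9 were above the median of the other FFD libraries. In the macrophage list, Clec4f was at 41.1 CPM against a median of 176 in those libraries. None of the 6 cholangiocyte markers was at 0 in any library. The part of duct cells in the members' levels was not tested.

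**Figure D2:**
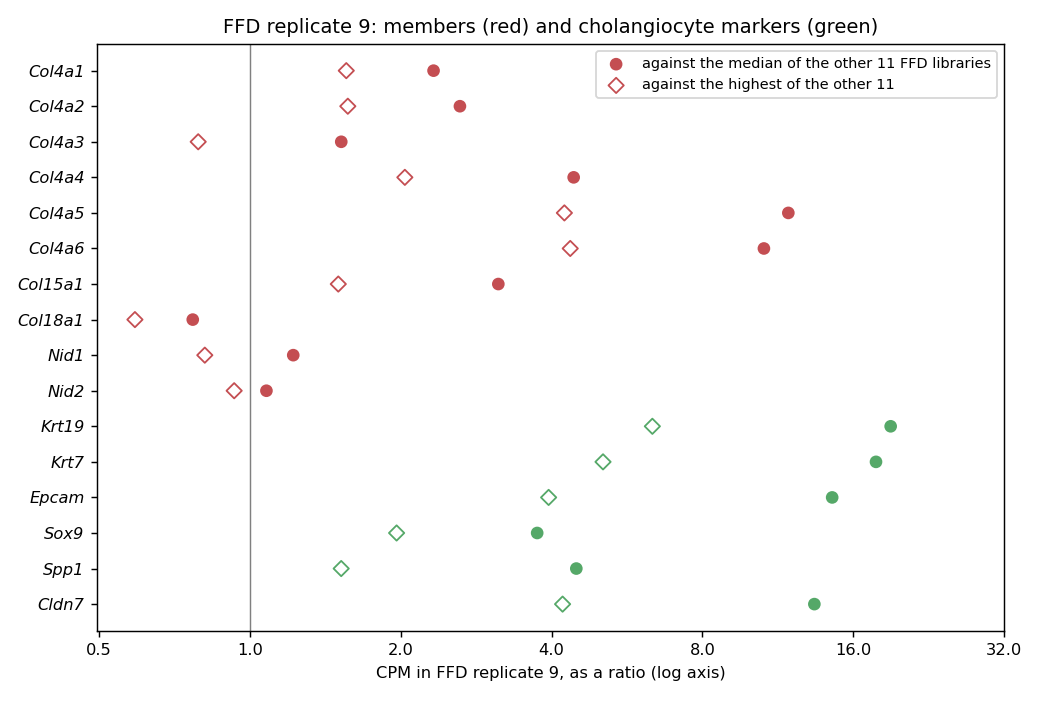
CPM in FFD replicate 9 as a ratio on a log axis, for the 10 members (red) and 6 cholangiocyte markers (green). Filled circles divide by the median of the other 11 FFD libraries and open diamonds by their highest value, so a diamond right of 1 is a gene highest in this library. Col4a5 and Col4a6 lie at over 10 times the median, as do Krt19, Krt7, Epcam and Cldn7, whereas Nid1 and Nid2 lie near 1.

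Per kilobase of exon sequence, the members' levels spanned several orders of magnitude, and the order was similar on both diets. In control livers Col18a1 stood at 158 ± 21.8 CPM per kb (SD, n = 12), followed by Col4a1 at 5.57 ± 1.61, Col4a2 at 3.94 ± 1.21, Nid1 at 2.14 ± 0.85, Col15a1 at 1.45 ± 0.473 and Nid2 at 1.06 ± 0.375 CPM per kb. Col4a5 had 0.156 ± 0.0743, Col4a4 0.0517 ± 0.0317, Col4a3 0.0414 ± 0.0255 and Col4a6 0.0215 ± 0.019 CPM per kb. Col4a1 was above Col4a2, and Col4a2 above Nid1, in 12 of 12 control libraries. Neighbours in the order that changed places between control libraries were Nid1 and Col15a1 (Nid1 higher in 8 of 12), Col15a1 and Nid2 (9 of 12), Col4a5 and Col4a4 (11 of 12), Col4a4 and Col4a3 (6 of 12), and Col4a3 and Col4a6 (6 of 12).

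On FFD the distance between Col18a1 and the others was smaller. Col18a1 had 116 ± 20.1 CPM per kb, Col4a1 16.3 ± 5.55, Col4a2 10.6 ± 4.54, Nid1 6.41 ± 1.45 and Col15a1 3.58 ± 2.17 CPM per kb. The mean of Col18a1 was 28.3 times that of Col4a1 in control and 7.1 times on FFD. Without Col18a1, the other 9 members summed to 57.6, 95.2 and 162 CPM in the lowest, median and highest control library and to 178, 236 and 513 CPM on FFD. As a description, Col18a1 made up 84.5% to 94.6% of the members' summed CPM in control libraries and 54.9% to 84.1% in FFD libraries, with no overlap.

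Ratios of transcripts within a library, which do not depend on the scaling, tested whether members changed by different amounts (6 ratios, two-sided permutation tests with 100000 resamples, Benjamini-Hochberg adjusted). Nid2 per Nid1 fell by 1.30 on the log2 scale (SE 0.20, permutation adjusted p = 0.00012), from a median ratio of counts of 0.390 in control to 0.142 on FFD, and it was below the control median in 12 of 12 FFD libraries. Col15a1 per Col18a1 was higher on FFD by 1.59 (SE 0.35, permutation adjusted p = 0.00028), with 11 of 12 FFD libraries above the control median. In each of these families, the change on FFD thus differed in size between the members.

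The chains of the common trimer kept closer to each other. Col4a2 per Col4a1 had a median ratio of 0.600 in control and 0.554 on FFD, a log2 difference of -0.15 (SE 0.07, permutation adjusted p = 0.0824). Col4a5 per Col4a1 differed by -0.54 (SE 0.34, permutation adjusted p = 0.158), so Col4a5 was not shown to gain on Col4a1. Nid1 per Col4a1 differed by 0.13 (SE 0.16, permutation adjusted p = 0.428). Without FFD replicate 9, Col4a5 per Col4a1 passed 0.05 at -0.73, and Col4a2 per Col4a1 passed 0.05 at -0.16.

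Col4a1 rose less than Col1a1, which encodes the alpha 1 chain of the fibrillar collagen I of scar tissue. Col4a1 per Col1a1 fell by 1.75 on the log2 scale (SE 0.26, permutation adjusted p = 0.00012, unadjusted p of 2e-05, the smallest that these resamples can give). The median ratio of counts was 4.24 in control and 1.11 on FFD, and all 12 FFD libraries were below the control median. Col1a1 itself rose from 13.6 ± 14.2 to 119 ± 68.2 CPM (log2 fold change 3.12, SE 0.42, edgeR adjusted p = 4.09e-06).

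**Figure D3:**
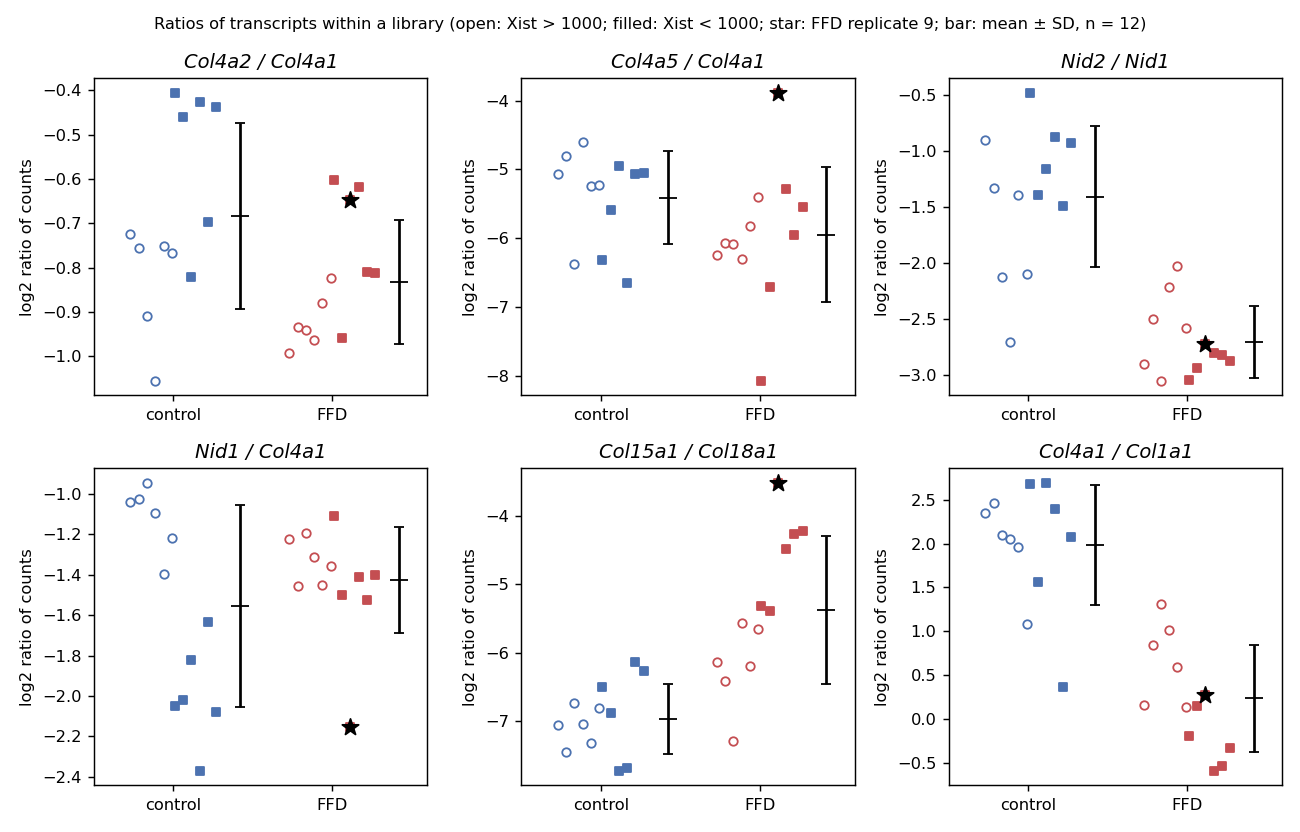
Log2 ratio of the counts (plus 0.5) of 2 genes in each library, by diet, for the 6 ratios tested, with mean ± SD as a bar (n = 12 per diet). Symbols mark the set by Xist counts and the star is FFD replicate 9. Nid2 per Nid1 and Col4a1 per Col1a1 are lower and Col15a1 per Col18a1 higher on FFD, while Nid1 per Col4a1 lies apart by set in the control libraries.

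Within the 2 sets by Xist counts, Col4a1, Col4a2 and Nid1 were called higher in each (edgeR), and their diets did not overlap in either set, which held for 3.51% of all genes in the set above and 12.6% in the set below with FFD on top. In the set with Xist above 1000 counts these were the 3 members called, where 2.9% of all genes were called higher. In the set below, 5 members were called higher, Col4a1, Col4a2, Col4a4, Col15a1 and Nid1, and 1 lower, Col18a1, where 14.4% of all genes were called higher and 7.99% lower. A call in 1 set alone does not show that the sets differ.

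The difference itself was tested as the interaction of diet and set, which 10.2% of all genes passed at an adjusted p of at most 0.05 in either direction. It passed for 1 of the 10 members, a share close to that of all genes. That member had the larger value in the set below, as did 6.18% of all genes. Nid1 had 13.3, 16.5 and 23.9 CPM in the lowest, median and highest of the 6 control libraries of the set above and 29.6, 37.7 and 41.9 CPM on FFD. In the set below it had 4.89, 10.7 and 22.9 CPM in control and 42.9, 52.3 and 62.9 CPM on FFD. Its log2 fold change was 1.02 (SE 0.14) in the set above and 2.17 (SE 0.26) in the set below, a difference of 1.14 (SE 0.30, edgeR adjusted p = 0.0152).

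For the other members the difference did not pass. The largest estimates were those of scarce chains, 2.87 for Col4a6 (SE 1.25, edgeR adjusted p = 0.153), 1.62 for Col4a4 (SE 0.62, edgeR adjusted p = 0.101) and 1.53 for Col4a5 (SE 0.79, edgeR adjusted p = 0.237). Without FFD replicate 9 they were 1.81, 1.19 and 0.53. For the nidogen Nid2 it was 0.26 (SE 0.34, edgeR adjusted p = 0.7) and for Col4a3 -0.36 (SE 0.75, edgeR adjusted p = 0.82). It was 0.56 for Col4a1 (SE 0.26, edgeR adjusted p = 0.173), 0.50 for Col4a2 (SE 0.26, edgeR adjusted p = 0.25), 0.98 for Col15a1 (SE 0.39, edgeR adjusted p = 0.121) and -0.42 for Col18a1 (SE 0.16, edgeR adjusted p = 0.0918). Col18a1 had a log2 fold change of -0.24 (SE 0.12, edgeR adjusted p = 0.184) in the set above and of -0.65 (SE 0.12, edgeR adjusted p = 0.000538) in the set below, where its 6 FFD libraries at 623 to 764 CPM were all below its 6 control libraries at 881 to 1264 CPM. In that set, 9.66% of all genes had every FFD library below every control library. This separation is on the TMM scale. In 4 other settings the Col18a1 difference between the sets ranged from -0.42 to -0.07, and with library totals it did not pass. Without control replicate 11, which had the highest control level of Col4a1, Col4a2, Col4a5 and Col4a6, the difference passed for 3 members, Col18a1, Col4a1 and Nid1. The share of all genes passing in that fit is not given.

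**Figure D4:**
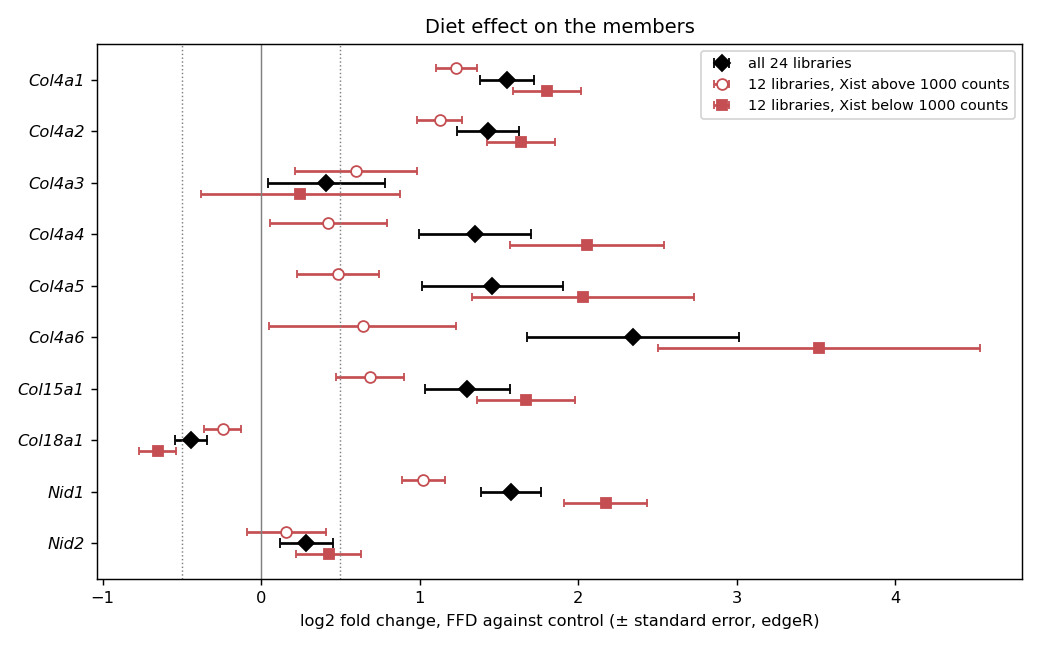
Log2 fold change of FFD against control (± standard error, edgeR) for the 10 members over all 24 libraries (black diamonds) and within the 12 libraries with Xist above (open circles) or below (filled squares) 1000 counts. Dotted lines mark a log2 fold change of 0.5 in either direction. The value is larger in size in the set below for 9 members, Col4a3 being the exception, and the difference between the sets passed the test for Nid1. The share of all genes with a larger value in the set below is not given. Of all genes, 14.4% were called higher and 7.99% lower in that set, against 2.9% and 0.882% in the set above.

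The ratio of Nid1 to Col4a1 also lay differently in the sets. In the set above it was lower on FFD by 0.21 on the log2 scale (SE 0.08, exact permutation adjusted p = 0.0455), and in the set below it was higher by 0.48 (SE 0.17, exact permutation adjusted p = 0.039). The test of the difference between the sets, a permutation of the sets within each diet that was added after these values were seen, gave 0.69 and did not pass after adjustment over 6 ratios (permutation adjusted p = 0.0647). For Nid2 per Nid1 the same test passed, with a difference of -1.03 between -0.79 (SE 0.31) in the set above and -1.82 (SE 0.16) in the set below (permutation adjusted p = 0.0419). This ratio uses the Nid1 counts of the interaction test, so it is no separate support for that difference.

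Within a diet, members of a head-to-head pair were compared library by library on log2(CPM + 1), after the mean of each set had been subtracted (12 libraries per diet, permutations within sets, 20 values of r and rho in the family). Col4a1 and Col4a2 went together in the control livers with Pearson's r = 0.93 (permutation adjusted p = 0.0016) and Spearman's rho = 0.89 (permutation adjusted p = 0.0043). Without the 2 libraries farthest from the median, r was 0.88. On FFD, r was 0.94 (permutation adjusted p = 0.00436) and rho 0.76 (permutation adjusted p = 0.0181), but r was 0.66 without FFD replicates 8 and 9 (permutation p = 0.0744). The call is therefore lost without those libraries, while a positive r remains. Without FFD replicate 9 alone, an alternative added after the data were seen, r was 0.79 (permutation adjusted p = 0.0305). The levels of both share the library's scaling.

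Col4a1 and Nid1 went together in control livers, with r = 0.95 (permutation adjusted p = 0.0016), rho = 0.90 (permutation adjusted p = 0.0026) and r = 0.86 without the 2 farthest libraries. On FFD their r was 0.26 (permutation adjusted p = 0.554) and rho 0.36 (permutation adjusted p = 0.439), and r was 0.56 without FFD replicates 8 and 9. Without FFD replicate 9 alone it was 0.71 (permutation adjusted p = 0.0716). The difference between the diets in this correlation was not tested. Of the other head-to-head pairs, Col4a5 and Col4a6 were not compared in this way. Col4a3 and Col4a4 had r = 0.68 on FFD (permutation adjusted p = 0.109; rho = 0.65, permutation adjusted p = 0.116) and 0.23 in control (permutation adjusted p = 0.665; rho = 0.08, permutation adjusted p = 0.847).

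Nid1 and Nid2 had r = 0.60 in control (permutation adjusted p = 0.0863; rho = 0.29, permutation adjusted p = 0.554) and 0.17 on FFD (permutation adjusted p = 0.788; rho = 0.13, permutation adjusted p = 0.816). Col15a1 and Col18a1 had r = -0.54 on FFD (permutation adjusted p = 0.154; rho = -0.63, permutation adjusted p = 0.103) and 0.09 in control (permutation adjusted p = 0.847; rho = 0.06, permutation adjusted p = 0.847). None of these 4 relations passed. With the 2 farthest libraries left out, r was 0.64 and 0.40 for Col4a3 and Col4a4, 0.14 and 0.23 for the nidogens, and -0.59 and 0.20 for Col15a1 and Col18a1, on FFD and in control in that order.

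**Figure D5:**
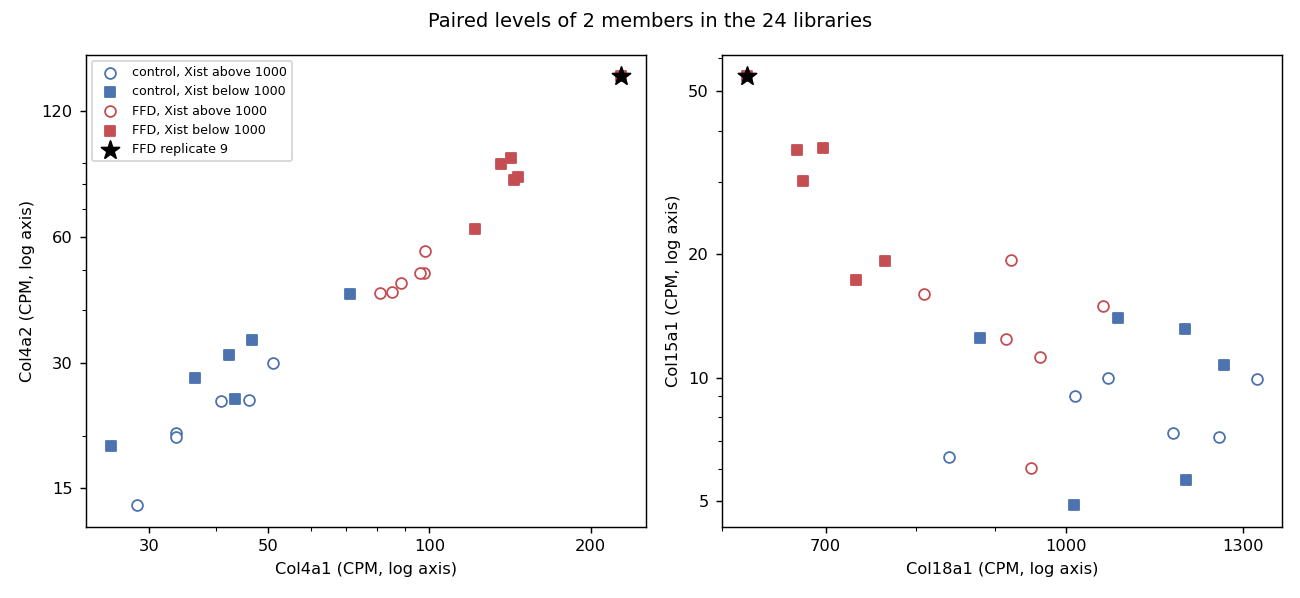
Col4a2 against Col4a1 (left) and Col15a1 against Col18a1 (right) in the 24 libraries, in CPM on log axes, with the diet by colour and the set by Xist counts by symbol. The star is FFD replicate 9. On the left all FFD libraries lie up and to the right of the control libraries along 1 band, and on the right the FFD libraries of the set below lie up and to the left.

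The genes whose level was most like that of Col4a1 over the 24 libraries, after subtraction of the 4 means by diet and set, were Myof (r = 0.89), Ppp1r9b (r = 0.88) and App (r = 0.88), chosen among 9630 genes that are no members. For comparison, r with Col4a1 was 0.93 for Col4a2 and 0.82 for Nid1. For Col18a1 they were Ticam1 (r = 0.90), Prr14 (r = 0.87) and Ppargc1b (r = 0.87), while r between Col18a1 and Col4a1 was -0.22. All of these values share the libraries and their scaling, and they describe likeness only.

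Other components of the basement membrane were examined as a list of 22 genes (laminin chains, perlecan, agrin and others). Of these, 12 were called higher and 0 lower by edgeR, and 10 were not called, with a median log2 fold change of 0.74. Among those called were the matrix glycoprotein Fbln1 (1.62, SE 0.36, edgeR adjusted p = 0.00102), Sparc, which binds collagen IV (1.57, SE 0.20, edgeR adjusted p = 1.96e-06), and the laminin alpha chain Lama2 (1.39, SE 0.30, edgeR adjusted p = 0.000798). The summed level was highest in FFD replicate 9, at 958 CPM with an FFD median of 537. In that library Fbln1 was at 23.2 CPM, against at most 6.05 in another FFD library. Without FFD replicate 9 the log2 fold change of Fbln1 was 1.06, and it was still called.

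Among 12 genes for the assembly and cross-linking of collagen IV, 4 were called higher, 0 lower and 8 were not called (median log2 fold change 0.34). Those 4 were Serpinh1, the collagen chaperone HSP47 (1.74, SE 0.20), Plod2, a lysyl hydroxylase (1.72, SE 0.28), P4ha1, a prolyl hydroxylase subunit (0.81, SE 0.16), and Pxdn, the peroxidase that forms the sulfilimine cross-link of collagen IV (0.65, SE 0.13). The edgeR adjusted p was 0.000345 for Pxdn and smaller for the other 3. Of 6 receptor genes, 2 were called higher and 0 lower (median 0.32), the collagen receptor kinase Ddr1 (2.56, SE 0.41, edgeR adjusted p = 2.72e-05) and the integrin subunit Itga2 (2.05, SE 0.50, edgeR adjusted p = 0.00196). In FFD replicate 9 Ddr1 was at 75.2 CPM, against at most 26.5 in another FFD library. All 5 fibrillar collagen genes were called higher, with a median log2 fold change of 2.41 against 1.39 for the 10 members.

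Marker lists of cells that could hold these transcripts were compared in the same way, and their part in the members' levels was not tested. All 5 continuous endothelial markers were called higher (median log2 fold change 0.90, summed 69.2 to 139 CPM in control and 144 to 225 on FFD), among them Cd34 (2.07) and Vwf (0.90). Cd34 and Cd9 were called in each of the 24 fits with 1 library left out, but Vwf and Emcn in only 16 each. Of 7 sinusoidal endothelial markers, 1 was called higher, Stab2 (0.57), and 0 lower (median 0.04, summed 200 to 400 CPM in control and 219 to 400 on FFD). Activated stellate cell and myofibroblast markers were called higher for 5 of 7 and lower for 0 (median 1.44, summed 16.8 to 44.7 CPM in control and 39.8 to 85.0 on FFD), with Timp1 at 3.62 and Lox at 2.91. Quiescent stellate cell markers were called higher for 2 of 6, Ngfr and Des, and lower for 0 (median 0.46, summed 82.8 to 162 CPM in control and 129 to 232 on FFD).

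Portal fibroblast markers were called higher for 5 of 7 and lower for 0 (median 1.48, summed 9.47 to 27.0 CPM in control and 19.3 to 108 on FFD), with Eln at 2.39. Macrophage markers were called higher for 5 of 7 and lower for 0 (median 1.32, summed 82.6 to 319 CPM in control and 276 to 542 on FFD), with Gpnmb at 5.49 and Trem2 at 3.47. Of 5 smooth muscle markers, 1 was called higher, Smtn at 0.72, and 0 lower (median -0.51, summed 48.1 to 114 CPM in control and 77.1 to 108 on FFD). Cd34 and Cd9 each stand in 2 of these lists. The cholangiocyte list had a median log2 fold change of 2.47. Individual libraries had 0 counts of Timp1, Lox, Gli1, Cnn1 or Actg2, and no marker was at 0 throughout a diet.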

How the data were processed

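Poly(A)-selected RNA of whole liver was sequenced in 24 mouse libraries, 12 per diet. The authors deposited a table of whole-number counts per Ensembl gene, without normalization. The submitters' processing notes name bcl2fastq, STAR 2.7.3a and the build mm10. The study's methods describe a stranded library kit, the exon quantification pipeline and PISCES for RNA-Seq aligned to the human genome. Whether the mouse counts were made with them, with which strand setting and with which annotation release, is not given in the sources used here. Symbols and coordinates came from GENCODE M21 by gene ID, and the 4460 IDs absent from it held 0.0723% of the counts.

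The members, the gene lists and the split by Xist counts were chosen with earlier results of these data known. Named genes were all 10 members, from each list at most 4 called genes per direction by size of change, the genes used in a ratio, and the 3 genes most like Col4a1 and Col18a1 with at least 100 counts on average. The result of 1 gene under this rule is not reported here. Gli1, Cnn1 and Actg2, named for libraries at 0, were chosen after their values were seen. So were Plvap, Stab1 and Clec4f, named for their levels in FFD replicate 9.

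From the deposited counts, edgeR 4.0.16 in R 4.3.3 fitted the diet effect for 17913 genes, namely those counted at least 1 time in 12 or more libraries (TMM scaling, quasi-likelihood test, Benjamini-Hochberg adjustment over all of them). Calls followed the limits of the study's methods, an adjusted p no higher than 0.01 and a log2 fold change beyond 0.5 in size. Standard errors were derived as the size of the log2 fold change over the root of F. The interaction of diet and set used an adjusted p of at most 0.05. The fits were tested on simulated data. Ratios added 0.5 to counts. Permutation tests were two-sided and used scipy 1.17.1 or the same resampling with 100000 draws. Sequences came from RefSeq (GRCm38.p6).

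Alternatives were DESeq2 1.42.0, limma-voom of limma 3.58.1, other scalings, filters and thresholds, the replicate number as a block, the set as a covariate, fits within each set, and each library left out in turn. The replicate numbers were not taken as pairs, because same-numbered libraries did not deviate together throughout. No pair of libraries within a diet was alike within sampling noise (chi-square per degree of freedom of at least 10.1). Intervals for counting error are not given for scarce genes, whose counts are printed instead.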

Additional observations from a re-analysis of the deposited data

Results flagged for a closer look

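The diet effect on Nid1 differed between the 2 sets of libraries by Xist counts. The log2 fold change of FFD against control was larger by 1.14 (SE 0.30, edgeR adjusted p of the interaction = 0.0152) in the set with fewer than 1000 Xist counts. Nid1 was the only 1 of the 10 members to pass that test, a share close to the 10.2% of all genes. All 6 FFD libraries were above all 6 control libraries in each set. The difference passed in each of the 24 fits that left out 1 library, where it was between 0.99 (without control replicate 10) and 1.44 (without control replicate 11).

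The fall of Nid2 per Nid1 differed between the sets by -1.03 on the log2 scale, with a permutation adjusted p of 0.0419 over 6 ratios. That test was added after the ratios within the sets had been seen. It uses the same Nid1 counts, so it is no separate support for the difference in Nid1. For Nid2 alone the difference between the sets was 0.26 (SE 0.34, edgeR adjusted p = 0.7). The sets probably are the sexes, going by Xist and the design's group sizes, but no label says so, and the part of sex was not tested.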

How the results depend on the processing

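Col4a1, Col4a2 and Nid1 were called higher under every alternative run. The number of members called higher was 3 in the set with Xist above 1000 counts and otherwise 4 to 7: 7 with DESeq2 or library totals, 5 with limma-voom or the set as a covariate, and 4 to 7 with 1 library left out, the lowest without FFD replicate 9. All 10 members were tested except with filterByExpr (8 tested) and the filter of 10 counts in every library (6 tested). Shares of all genes called are given only for the main fit and the fits within the sets. The other counts describe the members alone. Col4a6 was not tested with filterByExpr or the filter of 10 counts in every library, and it was not called with limma-voom, the replicate block, the set covariate, in either set, or in 10 of the 24 fits with 1 library left out. Members lower were 1, Col18a1, in the set below 1000 and at an adjusted p of at most 0.05 with any fold. With the replicate number as a block, 4 members were called higher (Col4a1, Col4a2, Col15a1 and Nid1) and Col4a2 per Col4a1 passed at -0.15 (sign-flip permutation adjusted p = 0.0264). Same-numbered libraries correlated between -0.10 and 0.58, and 2 of 12 FFD libraries correlated best with their own number.

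Col4a5 per Col4a1 passed with a pseudocount of 5 (-0.74, permutation adjusted p = 0.0191) and in the set above (-0.77, exact permutation adjusted p = 0.0455). Nid1 per Col4a1 was -0.21 in the set above, a reversal, and 0.48 in the set below. With 1 library left out, Col4a2 per Col4a1 ranged from -0.18 to -0.12 and passed in 5 of 24 fits, and Col4a5 per Col4a1 ranged from -0.73 to -0.35. Nid2 per Nid1, Col15a1 per Col18a1 and Col4a1 per Col1a1 passed under every alternative.

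Without subtraction of the set means, r on FFD was 0.80 for Col4a1 and Nid1 (permutation adjusted p = 0.00385) and -0.83 for Col15a1 and Col18a1 (permutation adjusted p = 0.00203). With library totals, Nid1 and Nid2 in control had r = 0.69 (permutation adjusted p = 0.0416). Col15a1 and Col18a1 on FFD had r = -0.08 with library totals (permutation adjusted p = 0.799), so their negative r depended on the scaling. Without the 2 farthest libraries, Col4a1 and Col4a2 on FFD had r = 0.66 (permutation adjusted p = 0.183). The interaction of diet and set passed for 2 members with DESeq2 (Nid1 and Col18a1), 4 with library totals (Nid1, Col4a1, Col4a4 and Col15a1), and 1 to 3 with 1 library left out. Shares of all genes passing in these fits are not given. For Col4a3 its value was 0.00597 with library totals, a reversal, and -0.68 to 0.03 with 1 library left out. The cause of these changes was not tested. Depth limits Col4a3, Col4a4, Col4a5 and Col4a6, whose median counts per library were between 3 and 25.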
